A study of Homo sapiens with 6 samples.

Results

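The mitochondrial ribosomal protein genes are the nuclear genes for the proteins of the ribosome inside mitochondria. They were taken as every row of the deposited gene table whose symbol is MRPL or MRPS, a number and at most one of the letters A to C, which leaves out pseudogenes and antisense genes. The rule found 78 of 62703 rows: 49 MRPL genes, named for the large subunit, and 29 MRPS genes, named for the small subunit. All 78 had a mean of at least 1 TPM and were tested among 15768 genes.

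The study sequenced total RNA of H9, an established line of human embryonic stem cells that the labels call pluripotent stem cells, in 6 libraries. In 3 libraries the cells had received a small interfering RNA against NPM1, the gene of the nucleolar protein nucleophosmin (siNPM1; the treatment label names B23, another name of nucleophosmin, and the label of the third sample carries an added 3). The other 3 had received a control duplex (siControl). No further treatment, time point or genotype was labelled, all 6 libraries came from one line, and the series design calls the 3 samples of a group biological replicates. The study concerns the long noncoding RNA ESRG, its binding to NPM1, and BMP4 and TGF-β signalling in self-renewal.

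The mitochondrial ribosome translates the few messenger RNAs of the mitochondrial genome, all of which encode subunits of the respiratory chain and the ATP synthase. Its ribosomal RNAs are made inside the organelle, whereas all of its proteins are made by cytosolic ribosomes and imported. Some of these proteins have bacterial counterparts and others exist only in mitochondrial ribosomes. Symbols do not always follow the structure: MRPS30 and MRPS18A sit in the large subunit, and MRPS36 is now assigned to the 2-oxoglutarate dehydrogenase complex. Proteins of this ribosome are needed for oxidative phosphorylation, and inherited defects in several of them cause mitochondrial disease.

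The promoters of 5 genes are shown because these genes carried large differences with contrasting control patterns or, for MRPL46, because it lies head to head with another member. Each window runs from 250 bases before to 50 bases after the start of the gene, 5′ to 3′, as RefSeq gives it on GRCh38.p14. Capitals mark matches, on either strand, to the 5 motifs searched.
MRPL1 (chr4:77862580-77862879, plus strand): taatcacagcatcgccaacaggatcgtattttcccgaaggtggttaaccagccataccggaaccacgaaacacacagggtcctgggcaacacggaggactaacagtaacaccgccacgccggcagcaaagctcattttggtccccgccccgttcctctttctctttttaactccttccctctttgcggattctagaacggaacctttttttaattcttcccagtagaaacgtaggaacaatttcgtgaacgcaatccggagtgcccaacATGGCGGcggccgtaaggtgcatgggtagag
MRPS31 (chr13:40771141-40771440, minus strand): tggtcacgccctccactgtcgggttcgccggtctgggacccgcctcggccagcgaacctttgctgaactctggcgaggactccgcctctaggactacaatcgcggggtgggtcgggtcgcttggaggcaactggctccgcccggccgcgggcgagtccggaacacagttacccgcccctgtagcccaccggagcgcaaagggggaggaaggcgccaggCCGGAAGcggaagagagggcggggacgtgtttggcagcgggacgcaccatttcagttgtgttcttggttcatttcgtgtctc
MRPS18A (chr6:43687742-43688041, minus strand): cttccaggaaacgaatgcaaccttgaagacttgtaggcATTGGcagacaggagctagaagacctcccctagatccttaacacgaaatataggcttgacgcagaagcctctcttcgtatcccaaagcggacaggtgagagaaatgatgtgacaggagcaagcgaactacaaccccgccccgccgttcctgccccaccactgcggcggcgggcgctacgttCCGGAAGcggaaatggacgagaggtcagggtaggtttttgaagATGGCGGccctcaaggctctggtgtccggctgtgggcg
MRPS24 (chr7:43869468-43869767, minus strand): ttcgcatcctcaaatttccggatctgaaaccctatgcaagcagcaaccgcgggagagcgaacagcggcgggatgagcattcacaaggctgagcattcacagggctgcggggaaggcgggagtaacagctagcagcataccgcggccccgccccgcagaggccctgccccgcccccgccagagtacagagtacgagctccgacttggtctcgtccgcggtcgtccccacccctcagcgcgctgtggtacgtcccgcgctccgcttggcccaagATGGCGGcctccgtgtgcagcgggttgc
MRPL46 (chr15:88467339-88467638, minus strand): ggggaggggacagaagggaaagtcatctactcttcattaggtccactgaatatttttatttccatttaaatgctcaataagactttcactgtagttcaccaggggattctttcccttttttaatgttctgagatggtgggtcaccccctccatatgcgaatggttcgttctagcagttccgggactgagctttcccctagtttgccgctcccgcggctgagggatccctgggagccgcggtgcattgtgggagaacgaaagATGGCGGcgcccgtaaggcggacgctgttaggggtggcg

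The motifs were CCGGAAG of ETS family factors, ATGGCGG as the core for YY1, GCATGCG as the core for NRF1, the E-box CACGTG and the CCAAT box, none of which contains another. RefSeq windows matched 69 of the 78 genes, with 85 windows in all. The ETS motif was in 38.8% of these windows, against 16.3% of the windows of the other tested genes and 10.3% of all 35116 windows. The YY1 core was in 29.4% of the members' windows, against 8.86% of the windows of the other tested genes and 5.55% of all windows. The NRF1 core stood in 8.24%, against 5.62% and 3.91%, and the E-box in 10.6%, against 9.19% and 7.26%, in the same order of sets. The CCAAT box was about as frequent in the members' windows (32.9%) as in those of the other tested genes (34.7%). MRPS18A held 3 of the 5 motifs, MRPS31 held the ETS motif, and MRPL1, MRPS24 and MRPL46 held the YY1 core, the last outside the stretch that its window shares with that of MRPS11. The MRPS11 window held none of the 5. No sequence is printed for the 3 members on chromosome 8, MRPL13, MRPL15 and MRPS28. A match describes letters in a window and says nothing of binding. In the printed windows of MRPL1, MRPS18A, MRPS24 and MRPL46 the YY1 core lay within the 50 bases after the start. Its letters ATG can also be those of a start codon, and such matches were not set apart.

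**Figure D1:**
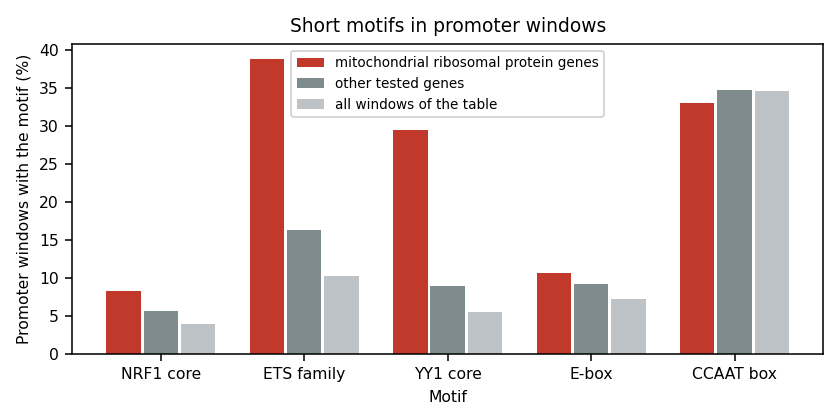
Share of 300-base promoter windows (y axis, %) that hold each of 5 motifs (x axis), for the mitochondrial ribosomal protein genes, the other tested genes and all windows of the table. The ETS motif and the YY1 core stood in 38.8% and 29.4% of the members' windows, against 16.3% and 8.86% of the windows of the other tested genes, while the CCAAT box had similar shares in each set.

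In the 6 libraries the targeted gene followed the labels. NPM1 had 173, 165 and 238 TPM in siNPM1 replicates 1, 2 and 3 and 3109, 2969 and 3132 TPM in siControl replicates 1, 2 and 3, a log2 difference of -4.01 (SE 0.157; adjusted p = 0.000852, limma with Benjamini-Hochberg adjustment). One control library stood apart. The mitochondrially encoded messenger RNAs took 17.0 to 19.8% of all TPM in the siNPM1 libraries and 8.86, 22.3 and 8.82% in siControl replicates 1, 2 and 3. Cytosolic ribosomal protein genes took 20.2 to 22.3% in the siNPM1 libraries and 25.0, 17.5 and 25.6% in the siControl libraries. On both measures siControl 2 lay on the siNPM1 side of siControl 1 and 3. Most counts of calls, list medians and the largest differences are therefore also given without it and against it alone. The summed level of 10 pluripotency markers was 4370 to 5118 TPM in siNPM1 and 5249 to 5405 TPM in siControl. That of 7 fibroblast or feeder markers was 43.0 to 53.6 TPM in siNPM1 and 40.8 to 43.3 TPM in siControl. That of 4 definitive endoderm markers was at most 1.57 TPM. The summed level of 5 neuroectoderm markers was 53.7 TPM in siNPM1 replicate 1 and 2.40 to 6.37 TPM in the other 5 libraries. Trophoblast and amnion markers, 7 genes, summed to 23.2 TPM in siNPM1 replicate 1 and 5.50 to 9.63 TPM elsewhere, and 5 mesendoderm markers to 8.23 TPM in siControl 2 and 1.63 to 4.75 TPM elsewhere. The part of these differences in the results below was not tested.

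No mitochondrial ribosomal protein gene passed the test. At an adjusted p under 0.05, 0 of 78 passed in either direction, against 0.0254% of all tested genes (0 higher and 4 lower genes). The smallest adjusted p of a member was 0.233 and the largest 0.971 (limma with Benjamini-Hochberg adjustment). At an unadjusted p under 0.05, 5 members were higher (background 13.2% of tested genes) and 2 were lower (background 6.45%), together 8.97% of the members against 19.7% of all tested genes. Differences between the group means of log2(TPM + 1), siNPM1 minus siControl, ran from -0.49 for MRPS26 to 0.94 for MRPL1. Differences of at least 0.5 in size were found for 6 members, all positive, which is 7.69% of them against 29.2% of all tested genes. The members had means of 8.25 to 193 TPM, whereas the tested genes reach down to 1 TPM. The shares of members and tested genes are therefore not matched for level.

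The summed level of the 78 genes overlapped between the groups. It was 4520, 4761 and 4797 TPM in siNPM1 replicates 1, 2 and 3 and 4394, 4902 and 4329 TPM in siControl replicates 1, 2 and 3. In each library this was less than 1% of all TPM, 0.452 to 0.480% in siNPM1 and 0.433 to 0.490% in siControl. The highest of the 6 sums belonged to siControl 2 and the lowest pair to siControl 1 and 3. In bulk RNA, a different share of cells of some type and a different amount of RNA per cell cannot be told apart.

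MRPL and MRPS genes kept nearly the same balance. The MRPL sum was 3006, 3131 and 3177 TPM in siNPM1 and 2921, 3257 and 2893 TPM in siControl. The MRPS sum was 1514, 1631 and 1619 TPM in siNPM1 and 1473, 1645 and 1436 TPM in siControl. The ratio of the sums was 1.99, 1.92 and 1.96 in siNPM1 and 1.98, 1.98 and 2.01 in siControl, so that the groups overlapped on both sums and on the ratio. The median difference was 0.07 over the 49 MRPL genes and 0.12 over the 29 MRPS genes, beside 0.10 over all tested genes. Positive differences were found for 30 of 49 MRPL and 19 of 29 MRPS genes, 62.8% of all members against 59.9% of tested genes. With each library centred on its median the medians turned to -0.0535 for MRPL and -0.00218 for MRPS, beside -0.02 over all tested genes, so the sign of either median depends on the scaling.

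**Figure D2:**
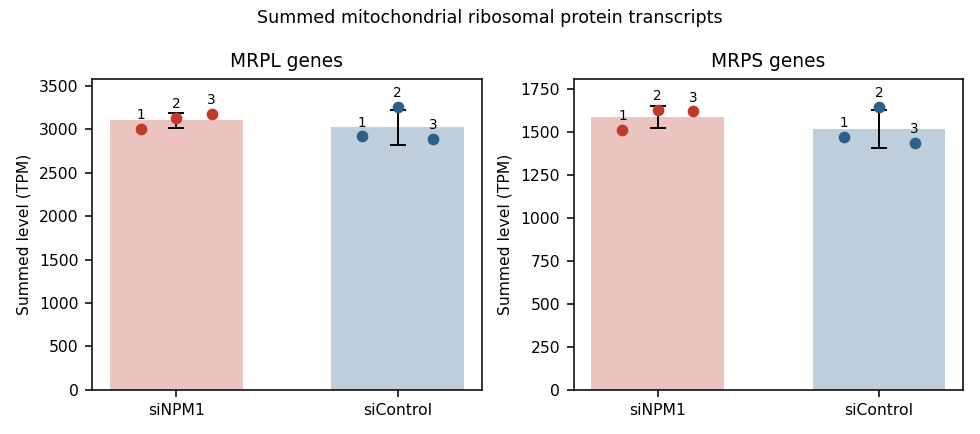
Summed TPM (y axis) of the 49 MRPL genes and the 29 MRPS genes in siNPM1 and siControl libraries. Points are libraries numbered by replicate, bars are group means and error bars are the SD over 3 libraries. In both panels siControl 2 is the highest library and siControl 1 and 3 are the lowest.

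Levels per transcript length, in TPM, spread widely within the family. The mean over 6 libraries ran from 8.25 TPM for MRPL57 to 193 TPM for MRPL51, with a median of 54.9 TPM over the 78 genes. The median was 55.4 TPM over the MRPL genes and 47.7 TPM over the MRPS genes. Among the MRPL genes MRPL51, MRPL42 and MRPL33 had the highest means and MRPL57 and MRPL46 the lowest. MRPS34, MRPS15 and MRPS9 headed the MRPS genes, and MRPS17 and MRPS11 came last. MRPL51, a mitochondria-specific protein, had 178, 195 and 191 TPM in siNPM1 and 188, 225 and 183 TPM in siControl (difference -0.07, SE 0.118). MRPL33, the counterpart of bacterial L33, had 153, 136 and 144 TPM in siNPM1 and 130, 163 and 134 TPM in siControl (difference 0.02, SE 0.125). The groups overlapped for both genes. For MRPL57, a mitochondria-specific protein, the levels were 9.24, 11.1 and 9.76 TPM in siNPM1 and 5.02, 9.49 and 4.94 TPM in siControl (difference 0.61, SE 0.255). Its siControl 1 and 3 levels were below all others, and its siControl 2 level lay inside the siNPM1 range.

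Replicates varied more in the control group. The median coefficient of variation of a member was 7.42% over the siNPM1 libraries and 13.9% over the siControl libraries, beside 13.7% and 23.4% over all tested genes. The tested genes reach down to a mean of 1 TPM, so these values are not matched for level. The SD was larger in siControl for 54 of 78 members, 69.2% against 64.7% of tested genes. Between siControl 1 and siControl 3 alone the median gap was 6.20%. siControl 2 lay nearer to the siNPM1 mean than to siControl 1 and 3 for 60 of 78 members. That is 76.9% of the members, against 69.9% of all tested genes. siControl 2 was above both other controls in 50 members, 64.1% against 50.8% of tested genes, and below both in 18, 23.1% against 37.1%. It lay within the siNPM1 range in 39 members, 50% against 40.2%.

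**Figure D3:**
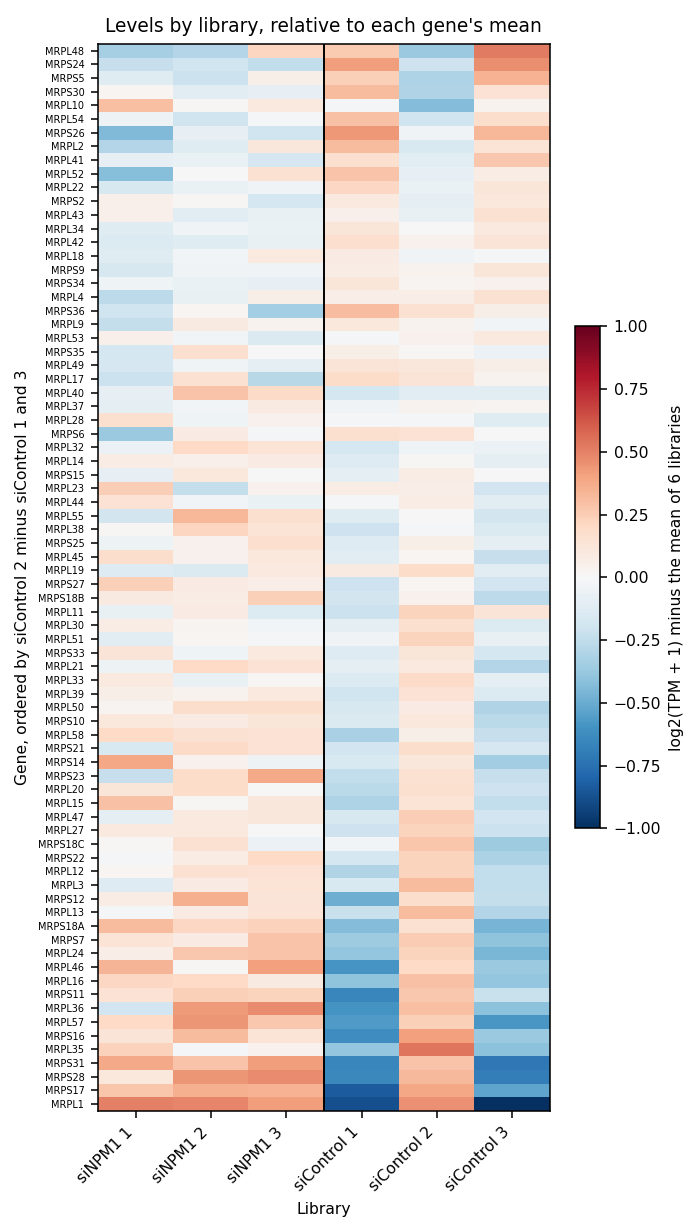
Levels of the 78 genes (rows) in the 6 libraries (columns) as log2(TPM + 1) minus the gene's mean over all libraries, with rows ordered by siControl 2 minus the mean of siControl 1 and 3. Red is above and blue below the gene's mean. In the lower rows, from MRPS18A to MRPL1, siControl 1 and 3 are blue while siControl 2 and most siNPM1 libraries are red, and in MRPS24 near the top the colours are turned round.

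Among proteins of the large subunit, MRPL1, the counterpart of the bacterial protein of the L1 stalk where spent tRNA leaves, had the largest difference of the family. The gene (ENSG00000169288) lies on the plus strand of chromosome 4 from 77862520 to 77952790 in GENCODE release 29 on GRCh38. It had 36.6, 36.2 and 34.4 TPM in siNPM1 and 13.5, 35.5 and 12.3 TPM in siControl. siControl 2 matched the siNPM1 libraries and siControl 1 and 3 lay well below them. The difference was 0.94 (SE 0.374; adjusted p = 0.245, limma with Benjamini-Hochberg adjustment), 1.40 without siControl 2 (adjusted p = 0.00166) and 0.01 against siControl 2 alone.

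The stalk that recruits translation factors is built from MRPL10, MRPL12 and, at its base, MRPL11. MRPL12 had 72.5, 79.6 and 79.3 TPM in siNPM1 and 57.9, 83.5 and 60.0 TPM in siControl, a difference of 0.22 (SE 0.162). MRPL10 had 55.6, 45.2 and 48.1 TPM in siNPM1 and 44.5, 32.9 and 46.0 TPM in siControl, a difference of 0.27 (SE 0.166). For MRPL11 the levels were 55.9, 62.4 and 53.6 TPM in siNPM1 and 50.9, 69.1 and 64.5 TPM in siControl, a difference of -0.09 (SE 0.148). The groups overlapped for all 3 stalk genes, and the siControl 2 level was the highest of 6 for MRPL12 and MRPL11 and the lowest of 6 for MRPL10.

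MRPL58 is a peptidyl-tRNA hydrolase that became a part of the ribosome and can release stalled chains. It had 40.7, 39.3 and 39.3 TPM in siNPM1 and 28.1, 37.0 and 30.0 TPM in siControl. The groups did not overlap, the difference was 0.33 (SE 0.136) and the adjusted p was 0.250 (limma with Benjamini-Hochberg adjustment). MRPL45, which anchors the ribosome at the inner membrane near the exit tunnel, had 71.8, 65.4 and 68.3 TPM in siNPM1 and 58.7, 64.2 and 53.9 TPM in siControl. Its groups did not overlap either, by about 1 TPM between siNPM1 2 and siControl 2, with a difference of 0.22 (SE 0.114). MRPL44, with a ribonuclease III fold, had 55.3, 48.9 and 47.7 TPM in siNPM1 and 49.3, 52.7 and 46.0 TPM in siControl (difference 0.04, SE 0.117). MRPL3, the counterpart of bacterial L3, had 126, 146 and 152 TPM in siNPM1 and 124, 172 and 116 TPM in siControl (difference 0.06, SE 0.173). Neither of these last 2 genes separated the groups.

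Members of the large subunit with negative differences had smaller ones. MRPL42 had 159, 160 and 165 TPM in siNPM1 and 196, 179 and 190 TPM in siControl. This mitochondria-specific protein was lower in all 3 siNPM1 libraries than in any control, siControl 2 included, with a difference of -0.22 (SE 0.094) and an adjusted p of 0.257 (limma with Benjamini-Hochberg adjustment). MRPL49, also mitochondria-specific, had 28.6, 31.5 and 30.1 TPM in siNPM1 and 35.4, 34.9 and 33.6 TPM in siControl, again without overlap (difference -0.20, SE 0.109). MRPL41, another protein of this class, had 73.9, 74.6 and 69.8 TPM in siNPM1 and 87.7, 72.5 and 94.4 TPM in siControl (difference -0.21, SE 0.129), and siControl 2 lay among the siNPM1 libraries. MRPS30, which carries a small-subunit symbol but sits in the large subunit, had 63.2, 57.8 and 58.8 TPM in siNPM1 and 77.7, 50.4 and 69.0 TPM in siControl (difference -0.11, SE 0.172).

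In the small subunit, 3 genes had differences above 0.6 that rested on siControl 1 and 3. MRPS31, a mitochondria-specific protein, had 39.4, 37.0 and 40.5 TPM in siNPM1 and 18.9, 37.0 and 18.0 TPM in siControl (difference 0.72, SE 0.271). MRPS28, named as the counterpart of bacterial S1, had 69.4, 88.1 and 89.7 TPM in siNPM1 and 40.8, 80.8 and 39.5 TPM in siControl (difference 0.68, SE 0.286). MRPS17, the counterpart of bacterial S17, had 18.6, 19.7 and 19.6 TPM in siNPM1 and 8.11, 20.3 and 10.3 TPM in siControl (difference 0.65, SE 0.307). In each gene siControl 1 and 3 were below every other library, and siControl 2 was within or above the siNPM1 range. Their adjusted p ran from 0.241 to 0.284 in the fit of 6 libraries and from 0.00219 to 0.00531 without siControl 2 (limma with Benjamini-Hochberg adjustment). Against siControl 2 alone their differences were 0.07, 0.02 and -0.07, in the order MRPS31, MRPS28 and MRPS17.

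Of 3 small-subunit genes chosen for their roles, MRPS12, at the decoding centre, had 27.6, 33.8 and 28.7 TPM in siNPM1 and 18.4, 29.8 and 22.1 TPM in siControl (difference 0.37, SE 0.195). MRPS16, the counterpart of bacterial S16, had 47.3, 53.8 and 47.5 TPM in siNPM1 and 27.7, 57.6 and 33.0 TPM in siControl (difference 0.39, SE 0.262). For MRPS22, a mitochondria-specific protein, the levels were 60.5, 64.3 and 70.0 TPM in siNPM1 and 53.7, 71.3 and 48.7 TPM in siControl (difference 0.18, SE 0.164). In the last 2 genes siControl 2 was the highest of the 6 libraries. Of the MRPS genes with the highest levels, MRPS34, a mitochondria-specific protein, was at 97.7 to 99.9 TPM in siNPM1 and 105 to 112 TPM in siControl, without overlap. MRPS9, a counterpart of bacterial S9, was at 80.3 to 87.5 TPM in siNPM1 and 92.1 to 97.9 TPM in siControl, also without overlap, whereas MRPS15, the counterpart of bacterial S15, overlapped at 86.9 to 99.1 TPM in siNPM1 and 86.6 to 97.4 TPM in siControl.

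The 3 genes of the MRPS18 family encode related proteins that occupy different places. MRPS18A (ENSG00000096080; chromosome 6, minus strand, 43671303 to 43687791) had 44.0, 40.5 and 41.2 TPM in siNPM1 and 25.7, 39.1 and 25.1 TPM in siControl, without overlap and with a difference of 0.50 (SE 0.188; adjusted p = 0.241, limma with Benjamini-Hochberg adjustment). MRPS18B had 59.6, 58.8 and 66.0 TPM in siNPM1 and 49.1, 57.5 and 46.5 TPM in siControl, without overlap and with a difference of 0.27 (SE 0.125). MRPS18C, the counterpart of bacterial S18, had 64.7, 71.4 and 61.7 TPM in siNPM1 and 63.0, 78.2 and 50.1 TPM in siControl, which overlapped (difference 0.07, SE 0.176). Whether the differences of these 3 genes differ from one another was not tested.

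Lower levels in siNPM1 were found in 3 small-subunit symbols with different control patterns. MRPS26, a mitochondria-specific protein, had 34.0, 44.0 and 40.5 TPM in siNPM1 and 63.3, 45.5 and 59.1 TPM in siControl. It had the smallest adjusted p of the family, 0.233 (difference -0.49, SE 0.168; limma with Benjamini-Hochberg adjustment), and the groups did not overlap. MRPS24, the counterpart of bacterial S3, had 61.4, 62.7 and 60.6 TPM in siNPM1 and 96.9, 62.2 and 99.6 TPM in siControl, with siControl 2 among the siNPM1 libraries (difference -0.45, SE 0.192). MRPS36, the component of the 2-oxoglutarate dehydrogenase complex, had 21.9, 25.7 and 19.8 TPM in siNPM1 and 31.7, 28.4 and 26.5 TPM in siControl (difference -0.35, SE 0.146). Its groups did not overlap, and its difference was -0.36 without siControl 2 and -0.33 against siControl 2 alone, so it did not rest on the choice of control.

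**Figure D4:**
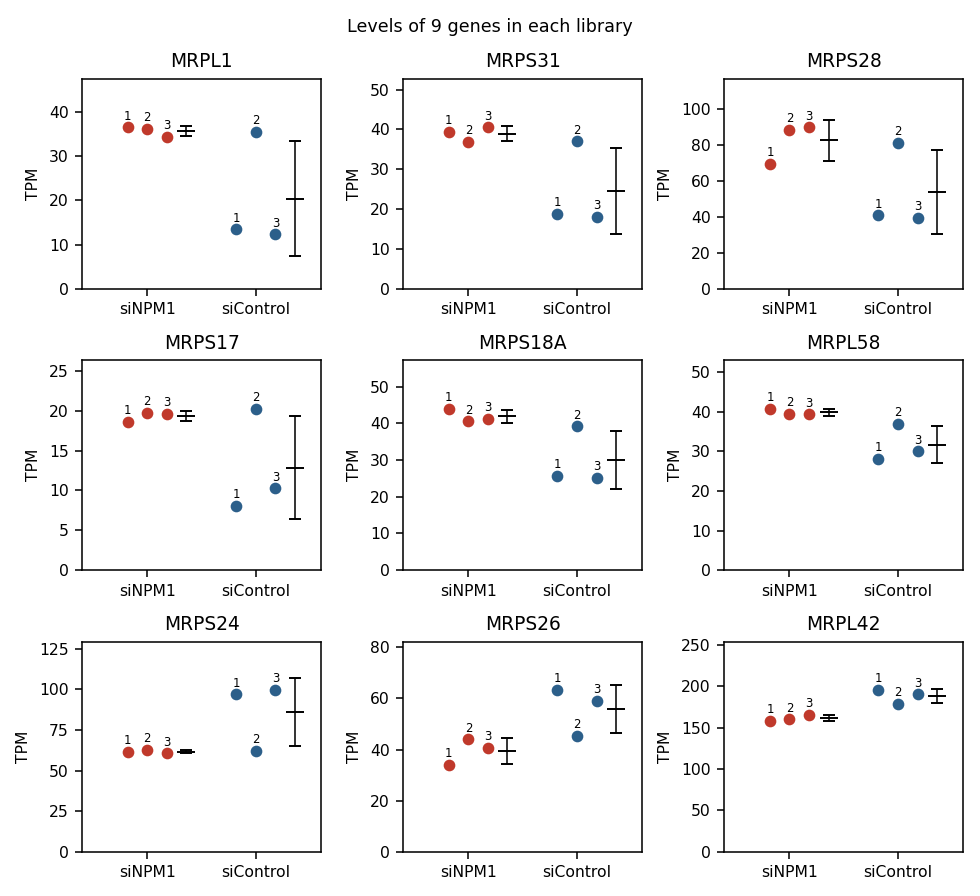
TPM (y axis, from 0) of 9 genes in each siNPM1 and siControl library. Points are libraries numbered by replicate, and the black mark beside them is the group mean with the SD over 3 libraries. In MRPL1, MRPS31, MRPS28 and MRPS17, siControl 2 lies at the siNPM1 level and siControl 1 and 3 lie below, in MRPS24 siControl 1 and 3 lie above, and in MRPL58, MRPS18A, MRPS26 and MRPL42 the groups do not overlap.

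Over all members, the groups did not overlap in 16 genes. Of these, 8 were higher in siNPM1, which is 10.3% of the members against 16.2% of tested genes: MRPL14, MRPL38, MRPL40, MRPL45, MRPL58, MRPS18A, MRPS18B and MRPS27. The other 8 were lower, against 8.55% of tested genes: MRPL4, MRPL34, MRPL42, MRPL49, MRPS9, MRPS26, MRPS34 and MRPS36. Between 3 and 3 libraries an exact two-sided permutation test cannot give a p below 0.1. By structure, the median difference was 0.12 over the 30 large-subunit proteins with a bacterial counterpart and -0.02 over the 21 that are specific to mitochondria. It was 0.16 over 16 small-subunit proteins with a bacterial counterpart and 0.15 over 10 specific to mitochondria. Without siControl 2 these medians were 0.19, 0.02, 0.28 and 0.27 in that order, and against siControl 2 alone they were -0.07, 0.04, -0.07 and -0.03. No test was made between these classes.

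The choice of control library decided the calls. Without siControl 2, 31 of 78 members passed, 39.7% against a background of 37% of tested genes. Of these 25 were higher, 32.1% of the members against 24.1%, and 6 were lower, 7.69% against 12.9%. The higher calls were 13 of 49 MRPL and 12 of 29 MRPS genes, and the lower calls were 3 of each. After MRPL1, MRPS31 and MRPS18A, the smallest p of a higher call belonged to MRPS17 and MRPS28. The lower calls with the smallest p were MRPS24 (-0.67), MRPS26 (-0.63), MRPL41 (-0.32), MRPL42 (-0.26) and MRPS5 (-0.38), of which MRPS5, the counterpart of bacterial S5, had 31.2, 29.3 and 35.6 TPM in siNPM1 and 40.4, 27.3 and 43.6 TPM in siControl. Against siControl 2 alone 0 of 78 passed, with a background of 0.171%, and 2 members (2.56%) had an unadjusted p under 0.05 against 10.6% of tested genes. In that fit the lone control is assumed to vary like the other group, and NPM1 itself missed the threshold with a log2 difference of -3.96 (adjusted p = 0.0651, limma with Benjamini-Hochberg adjustment), so the 0 says little of the members. With array weights, with which limma weights each library by its spread, 52 members passed (39 higher and 13 lower), 66.7% against 60.2% of tested genes, with 36.6% of tested genes higher and 23.6% lower.

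The median difference also moved with the control. It was 0.14 for MRPL and 0.24 for MRPS without siControl 2, beside 0.14 over all tested genes. Against siControl 2 alone it was -0.04 for both, beside 0.04 over all tested genes, and 31 of 78 members (39.7%) were positive against 54.8% of tested genes. Of the 31 members called without siControl 2, 16 had the opposite sign against siControl 2 alone, 51.6% against 42.8% of the 5833 tested genes called in that fit. Of the same 31, 6 separated the groups over all 6 libraries, 19.4% against 39.8% of the tested genes called in that fit: MRPL42, MRPL58, MRPS18A, MRPS18B, MRPS26 and MRPS27. The median size of a difference was 0.28 without siControl 2 and 0.09 against it alone, beside 0.41 and 0.22 over all tested genes. These values are not matched for level either.

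**Figure D5:**
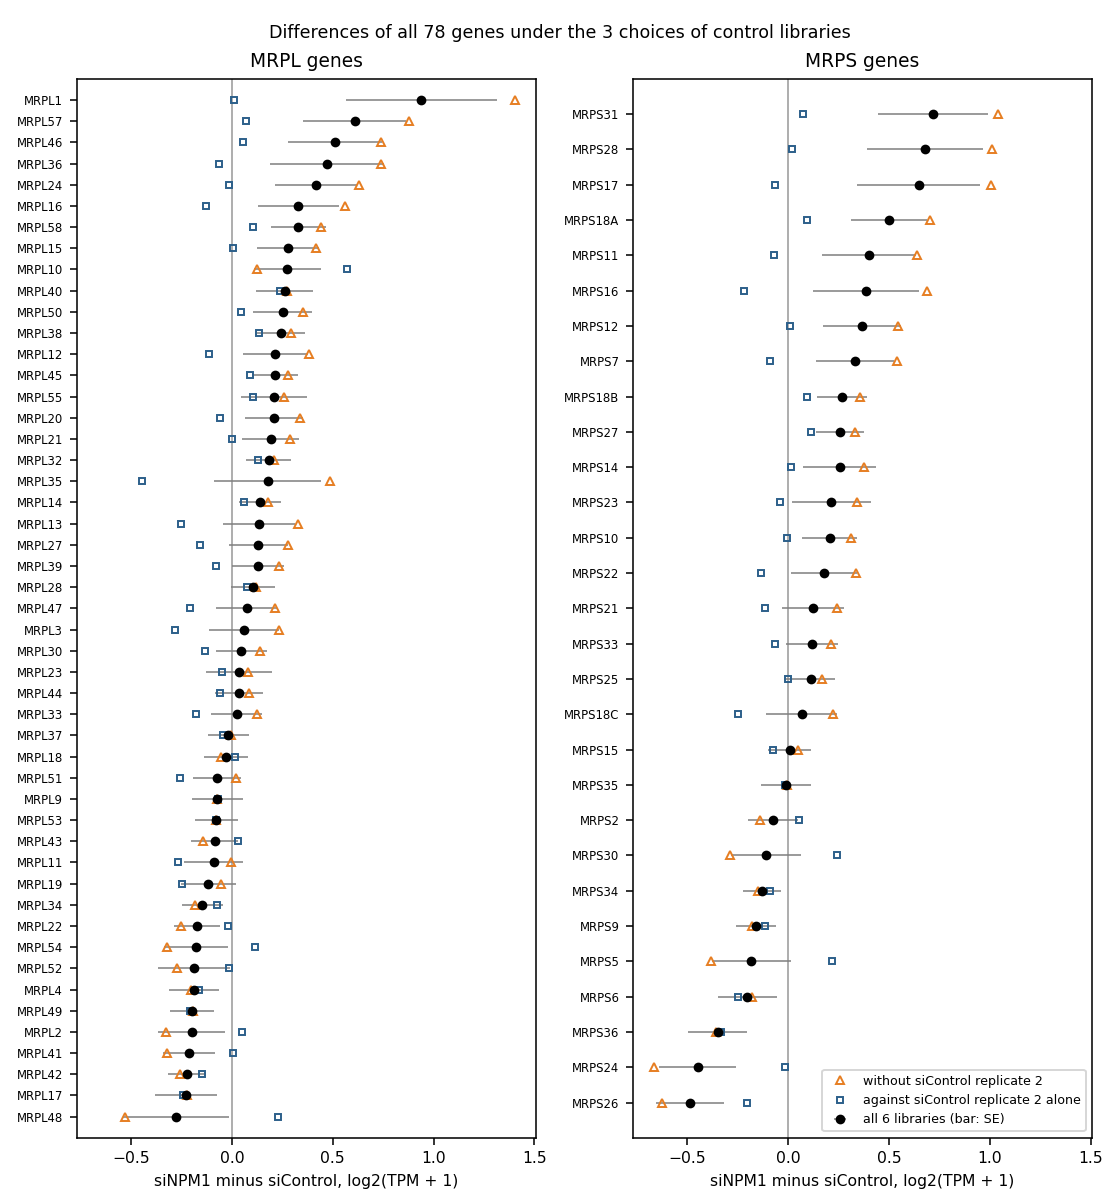
Difference of mean log2(TPM + 1), siNPM1 minus siControl (x axis), for each MRPL and MRPS gene (y axis). Black points with SE bars use all 6 libraries, orange triangles leave out siControl 2 and blue squares use siControl 2 as the only control. The triangles reach 1.40 for MRPL1 while its square lies at 0.01, and most squares lie near 0.

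TPM sets all transcripts of a library against one total, and the mitochondrially encoded and cytosolic ribosomal protein transcripts take up much of it. With both groups of genes removed and each library rescaled to the rest, the summed level of the members was 7658, 8177 and 8217 TPM in siNPM1 and 6862, 8290 and 6841 TPM in siControl. siControl 2 was again the highest library and siControl 1 and 3 the lowest. In that scaling 0 members passed, with a background of 0.0191%.

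In the lists of genes that work with the mitochondrial ribosome, 0 genes passed in the fit of 6 libraries or against siControl 2 alone. The median difference over 32 assembly factors was 0.24, with 27 positive. It was 0.37 without siControl 2 and 0.05 against siControl 2 alone. Without siControl 2, 15 of the 32 passed as higher and 1 as lower, against 24.1% and 12.9% of all tested genes. In the fit of 6 libraries 59.9% of all tested genes were positive. These shares are the background for the lists below as well. MRM1, a methyltransferase of mitochondrial ribosomal RNA, had 5.17, 5.03 and 5.76 TPM in siNPM1 and 2.18, 3.85 and 2.38 TPM in siControl (difference 0.76, SE 0.222). RCC1L, an assembly factor, had 25.1, 25.1 and 27.0 TPM in siNPM1 and 31.9, 28.7 and 30.0 TPM in siControl (difference -0.22, SE 0.114). Both genes separated the groups over all 6 libraries.

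Over 15 mitochondrial translation factors the median difference was 0.37, with 14 positive. It was 0.53 without siControl 2 and 0.04 against siControl 2 alone. Without siControl 2, 7 passed as higher and 0 as lower, against 24.1% and 12.9% of all tested genes. MRRF, the ribosome recycling factor, had 42.9, 36.9 and 39.3 TPM in siNPM1 and 26.0, 30.8 and 28.0 TPM in siControl (difference 0.48, SE 0.125; adjusted p = 0.212, limma with Benjamini-Hochberg adjustment). MTIF3, an initiation factor, had 44.2, 52.5 and 48.8 TPM in siNPM1 and 61.4, 61.4 and 54.4 TPM in siControl (difference -0.28, SE 0.119). Neither gene's groups overlapped.

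Values for the other related lists are given in the same order, from all 6 libraries, without siControl 2 and against siControl 2 alone. Over 24 genes of mitochondrial transcription and RNA handling the median was 0.23, 0.35 and 0.05. Of these genes 22 were positive in the fit of 6 libraries, against 59.9% of all tested genes. Without siControl 2, 10 passed as higher and 0 as lower, against 24.1% and 12.9% of all tested genes. FASTK had 23.6, 17.4 and 17.9 TPM in siNPM1 and 7.11, 12.8 and 7.76 TPM in siControl, with differences of 1.04, 1.28 and 0.57. PRORP, the catalytic subunit of mitochondrial ribonuclease P, was at -0.20, -0.02 and -0.58. The 22 mitochondrial tRNA synthetases had a median of 0.07, 0.10 and 0.05. Without siControl 2, 6 of them passed as higher and 2 as lower, against 24.1% and 12.9% of all tested genes. PARS2, for proline, was at 1.27, 1.71 and 0.37, and GARS1, for glycine in cytosol and mitochondria, was at -0.77, -1.01 and -0.30. All of these medians were positive under each choice of control, unlike those of the MRPL and MRPS genes. The median over all tested genes was positive under each choice too, at 0.10, 0.14 and 0.04. No test was made of the contrast with the MRPL and MRPS genes.

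Proteins of the ribosome under other symbols, 6 genes, had a median of -0.02, -0.04 and -0.02. Of these PTCD3 was at 0.19, 0.40 and -0.25, and CHCHD1 at -0.22, -0.26 and -0.15. In this list 1 gene passed as higher and 0 as lower without siControl 2. The 10 transcription regulators of mitochondrial genes had a median of 0.01, -0.03 and 0.09. The coactivator PPRC1 was at 0.66, 0.80 and 0.37 and the nuclear receptor ESRRA at -0.58, -0.71 and -0.33. Among these regulators 2 passed as higher and 1 as lower without siControl 2. Over the 75 nuclear genes of the respiratory chain the median was -0.11, -0.17 and -0.04. Without siControl 2, 22 of the 75 passed as lower and 9 as higher, against 12.9% and 24.1% of all tested genes. NDUFB9 and NDUFB4, both of complex I, were at 0.46, 0.55 and 0.27 and at -0.62, -0.82 and -0.21. The 83 tested cytosolic ribosomal protein genes had a median of -0.09, -0.28 and 0.25, so the sign turned with the control. Without siControl 2, 45 of them passed as lower and 2 as higher, against 12.9% and 24.1% of all tested genes. Against siControl 2 alone 76 of 83 were positive, beside 54.8% of all tested genes. RPS27L was at 0.53, 0.46 and 0.65 and RPL39L at -0.61, -0.61 and -0.61.

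Of the organelle's own transcripts, the 13 messenger RNAs and the 2 ribosomal RNAs were listed. The 13 messenger RNAs had a median difference of 0.75, all positive. Without siControl 2 the median was 1.18 and 13 passed as higher, against 24.1% of all tested genes. Against siControl 2 alone the median was -0.23. The smallest p was that of MT-CO1, a catalytic subunit of cytochrome c oxidase, with differences of 0.86 (SE 0.289) in the fit of 6 libraries, 1.18 without siControl 2 and 0.22 against it alone. MT-RNR1, the RNA of the small subunit, had 2172, 2271 and 2449 TPM in siNPM1 and 3273, 2103 and 4193 TPM in siControl, and MT-RNR2, that of the large subunit, had 14525, 16007 and 17289 TPM in siNPM1 and 17668, 8716 and 18952 TPM in siControl. siControl 2 had the lowest level of both RNAs, whereas it had the highest summed level of the proteins' transcripts.

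Several members lie next to or across other genes. Within 1000 bases of their start, 19 members (16 MRPL and 3 MRPS) have a protein-coding gene on the opposite strand that points away. MRPL46 and MRPS11 form such a pair on chromosome 15, with starts 34 bases apart in GENCODE release 29. MRPL46 had 23.7, 18.7 and 25.0 TPM in siNPM1 and 11.9, 21.4 and 14.1 TPM in siControl (difference 0.51, SE 0.234). MRPS11 had 22.2, 23.8 and 23.6 TPM in siNPM1 and 12.4, 24.4 and 17.0 TPM in siControl (difference 0.40, SE 0.234). Both genes were lowest in siControl 1 and 3. At MRPL43 the partner is TWNK, the mitochondrial DNA helicase. MRPL43 shares 149 exon bases with TWNK and 1170 with SEMA4G, both on the opposite strand. With the strand setting not given, reads of these shared bases cannot be told apart. TWNK had 23.2, 22.4 and 23.1 TPM in siNPM1 and 9.62, 20.7 and 9.01 TPM in siControl (difference 0.85). MRPL43 itself was at -0.08 (SE 0.116). MRPL36 is paired in this way with NDUFS6 and MRPL47 with NDUFB5, both genes of complex I subunits.

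Exons of 41 members overlap exons of another gene, and for 27 of them that gene had a mean of at least 1 TPM, on the opposite strand in 20 and on the same strand in 7. MRPL49 with FAU, MRPS18C with ABRAXAS1 and MRPS14 with CACYBP are examples. The strand setting of the counting was not given in the sources used here, so reads of such pairs cannot be told apart. Of 80 pseudogene rows named for these genes, 67 were listed at 0 in all 6 libraries and 3 had a mean of at least 1 TPM, the highest single value being 6.14 TPM. How reads shared with pseudogenes were assigned was not given, so members with close copies are uncertain. MRPL20-DT, a divergent transcript at MRPL20, had 7.40, 9.25 and 6.30 TPM in siNPM1 and 2.13, 2.94 and 1.54 TPM in siControl, without overlap (difference 1.44; adjusted p = 0.150, limma with Benjamini-Hochberg adjustment). MRPL20 itself had 98.6, 103 and 91.1 TPM in siNPM1 and 75.0, 102 and 78.6 TPM in siControl, which overlapped.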

How the data were processed

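The authors deposited 1 table of TPM values per gene and library. The only build named is GRCh38, per the submitters' notes on processing. Aligner, counter, annotation and strand setting are not given in the sources used here. TPM keeps no depth, so no interval for counting error is given and the depth is unknown. Column names tied each of the 6 libraries to its sample.

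Values were analysed as log2(TPM + 1) over the 15768 genes whose mean reached 1 TPM. limma 3.58.1 (R 4.3.3) with a variance trend compared the groups, two-sided, with Benjamini-Hochberg adjustment over all tested genes and a threshold of 0.05. Differences on this scale understate those of low genes. The p-values set each difference of group means against the spread between these samples within their groups, moderated over all tested genes. Positions came from GENCODE release 29 and promoters from RefSeq, with the build GRCh38.p14. The fit was tested on simulated data in which every library had the same spread. That test does not cover a control library that stands apart.

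Members and lists were chosen with earlier results of these data known. The text names 15 members chosen for their role or placement, the highest and lowest levels, the smallest p-values in each direction with and without siControl 2, the genes that separate the groups, and 1 gene per direction of each related list. Genes named only as neighbours of members, and the divergent transcript of MRPL20, were chosen after their values were seen. Alternatives covered pseudocount, filter, scaling, variance model, replicate block and leaving out libraries.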

Additional observations from a re-analysis of the deposited data

How the results depend on the processing

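The count of members past the threshold was 0 with a pseudocount of 0.1 or 0.5, other filters, each scaling, no trend, the robust prior, the replicate block and siControl 2 alone. It was 52 (39 higher, 13 lower; background 60.2% of tested genes) with array weights, and 0 to 31 over the fits that leave out one library, where only leaving out siControl 2 gave a count above 0. The count over all genes, 4 in the reported fit, was 1 with no filter, 2 at a mean of at least 5 TPM, 7 with no variance trend, 9486 with array weights, 27 against siControl 2 alone and 1 to 5833 when leaving out one library. With the replicate number as a block it was 1. Deviations of same-numbered libraries correlated at 0.0652, 0.0814 and -0.0383. The labels do not say whether same-numbered samples are paired. Because siControl 2 stands apart in its group, these correlations cannot decide it.

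The median difference of MRPL genes was -0.0535 and that of MRPS genes -0.00218 with each library centred on its median, and -0.0449 and -0.0415 against siControl 2 alone. They were 0.13 and 0.19 with quantile normalization, beside 0.01 over all tested genes, and 0.16 and 0.21 after rescaling without mitochondrially encoded and cytosolic ribosomal protein genes, beside 0.19. When leaving out one library the MRPL median ran from -0.00548, without siControl 3, to 0.138, without siControl 2, and was 0.0362 without siControl 1; the MRPS median ran from 0.0721 to 0.242 over the same 2 libraries. The MRPL median minus the MRPS median was -0.05 in the reported fit and -0.00345 against siControl 2 alone. It was -0.120 with array weights and -0.105 to -0.0251 when leaving out one library. The log2 ratio of the summed MRPL level was 0.0383, and 0.120 after the same rescaling. Among 34 genes, namely 33 members and NPM1, the sign of an uncalled difference changed in 5 with centring and in 13 against siControl 2 alone. Of the same 34, 25 newly passed with array weights and 19 without siControl 2, and NPM1 no longer passed against siControl 2 alone, where its log2 difference was -3.96 beside -4.01 in the reported fit (adjusted p = 0.0651, limma with Benjamini-Hochberg adjustment). The cause was not tested. The sequencing depth behind the values is unknown.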
